A study of Mus musculus with 18 samples.

Results

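Ornithine decarboxylase (Odc1), S-adenosylmethionine decarboxylase (Amd1), spermidine synthase (Srm), spermidine/spermine N1-acetyltransferase (Sat1) and ornithine decarboxylase antizyme (Oaz1) form the core of mammalian polyamine metabolism, and their RNA was followed in mouse kidney across 18 Affymetrix arrays. Members were the probe sets, groups of short oligonucleotides read as 1 value, whose only gene symbol in the platform annotation was one of these 5. That rule gave 3 of 12488 probe sets, 1 each for Odc1 (Entrez gene 18263), Sat1 (20229) and Srm (20810). Oaz1 had 2 probe sets, each of which also carried the symbol of its pseudogene, and Amd1 had no probe set under that symbol, so neither was analysed here. The _f_at suffix of the Srm probe set marks probes that can match related sequences, so its signal may not come from Srm alone.

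All mice were labelled strain C57, and whole kidney was the tissue. The groups were 3 mice labelled Aprt KO at 1 month (2 males, 1 female), 3 controls at 1 month (2 males, 1 female), 6 mice labelled Aprt KO at 7 days (3 males, 3 females) and 6 controls at 7 days (3 males, 3 females). Every labelled KO mouse was matched with a same-sex control from its litter, giving 9 pairs, called here litters 1 to 6 at 7 days and litters 7 to 9 at 1 month. The series text gives the genotypes as Aprt-/- and Aprt+/+; how the allele was made is not given in the sources used here. Aprt encodes the enzyme that returns adenine to the nucleotide pool, and in its absence adenine is oxidised to a poorly soluble compound that crystallises in the kidney.

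Polyamines are small positively charged molecules that bind nucleic acids and are needed for growth. Odc1 makes putrescine from ornithine, Srm adds to it an aminopropyl group from decarboxylated S-adenosylmethionine to form spermidine, and Sat1 acetylates spermidine and spermine so that they can be exported or oxidised. The aminopropyl transfer releases methylthioadenosine, from which cells form adenine, the substrate of Aprt. In the mouse kidney Odc1 is known as an androgen-responsive gene of the proximal tubule.

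The values were MAS5 signals, with a trimmed mean near 500 on every array. Both arrays of litter 4 had a compressed range, with a highest signal of 10167 and 10767, against 25718 to 51453 on the other 16 arrays. Aprt gave a weak check of the genotype labels. Its brightest probe set was dim, below the filter used for testing. Its dimmer probe sets were higher in labelled KO in 5 and 4 of 6 pairs at 7 days, and in 1 of 3 pairs each at 1 month. The side of an array was set by the midpoint of the medians of the labelled groups at its age, so some agreement was built in. In 14 of 18 arrays the brightest probe set lay on the side of the label. The exceptions were labelled KO replicate 1 at 1 month, with 86.53, labelled KO replicate 4 at 7 days, with 135.4, and control replicates 1 and 2 at 7 days, with 66.29 and 51.29. For that reason the groups are called by their labels, and calls that were lost without these 4 arrays are named with the value left. Proximal tubule markers summed to between 72560 and 91650 at 1 month. At 7 days they summed to 26910 to 43740 in labelled KO and 35940 to 50530 in control kidneys. Kidney tissue was thus borne out in each group, but a like composition was not. Adrenal markers at 1 month summed to 925.5 to 3923 in labelled KO and 646.8 to 1251 in controls. At 7 days those sums were 766 to 3947 and 620.1 to 4410. Fat markers summed to 961.9 to 1994 and 546.3 to 946.1 at 1 month, and 499 to 1675 and 463.9 to 1362 at 7 days, in the same order. The part of these tissues in the member results was not tested.

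The regions upstream of Odc1 and Sat1 are shown because these were the members that rose with age in controls. Both are RefSeq sequences on GRCm38.p6, read 5′ to 3′ on the gene's strand, with motif matches in capitals; the Srm promoter was not analysed here. The Odc1 gene lies at chr12:17544808-17551502, Sat1 at chrX:155213126-155216449 and Srm at chr4:148591513-148594619 in the same build. The stretch for Odc1 covers chr12:17544623-17544807 on the plus strand, up to the annotated gene. The stretch for Sat1 covers chrX:155216450-155216699 on the minus strand.
Odc1: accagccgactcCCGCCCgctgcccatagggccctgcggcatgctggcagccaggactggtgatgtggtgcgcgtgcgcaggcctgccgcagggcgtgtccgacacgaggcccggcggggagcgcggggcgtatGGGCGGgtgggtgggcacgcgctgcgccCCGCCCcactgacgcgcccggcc
Sat1: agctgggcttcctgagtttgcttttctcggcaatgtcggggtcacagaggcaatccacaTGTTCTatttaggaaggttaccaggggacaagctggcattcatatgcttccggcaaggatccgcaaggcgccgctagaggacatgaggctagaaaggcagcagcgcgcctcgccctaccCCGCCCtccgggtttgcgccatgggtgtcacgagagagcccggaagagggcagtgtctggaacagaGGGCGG

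In the 250 bases before the annotated transcription start, the GC box GGGCGG, read on both strands, occurred 4 times at Odc1, beginning 238, 116, 88 and 15 bases before the start. The copy nearest the start lies among 65 bases inside the annotated gene that are not printed. Sat1 held 2 GC boxes, at 72 and 6 bases, and 1 androgen response element half-site, AGAACA, which stands as TGTTCT 191 bases before the start. Neither window held the E-box CACGTG, the TATA box TATAAA, the AP-1 site TGANTCA or the antioxidant response element core TGACNNNGC, and no match was found for AGAACA at Odc1. Of 32851 mouse windows of the same length, 32.74% held a GC box, 16.08% the half-site, 6.021% the E-box, 12.37% the TATA box, 6.749% the AP-1 site and 10.16% the antioxidant core.

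The effect of the Aprt KO label was examined first at 7 days. Sat1, the acetylase that starts polyamine breakdown, rose in the labelled KO kidneys, while the biosynthetic genes Odc1 and Srm did not pass the test. On the 6 labelled KO arrays Sat1 had signals of 3554, 4236, 3914, 2731, 3512 and 3816, against 2391, 2380, 2514, 2892, 1820 and 2139 on the 6 control arrays, in order of replicate. The groups overlapped only through litter 4, where the labelled KO array (2731) was the lowest of its group and the control array (2892) the highest of its own. The means were 3627 ± 511.8 in labelled KO and 2356 ± 360.3 in control kidneys (SD, n = 6 each). Sat1 was higher in labelled KO in 5 of 6 pairs, by 0.57 to 0.94 on the log2 scale, and differed by -0.08 in litter 4.

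The fitted Sat1 difference at 7 days was 0.62 (SE 0.16, 95% interval 0.28 to 0.96), a fold of 1.53 on the log2(signal + 29) scale, with a limma adjusted p of 0.0467. It was the 1 of 3 members called, where 2.73% of all tested probe sets were called, 2.25% higher and 0.482% lower. The call sat at the threshold: it was lost in 18 of 32 alternative settings (log2 difference 0.54 to 0.76, adjusted p 0.00304 to 0.126). With the litter pair as a block the limma adjusted p was 0.0111 (fixed) or 0.00304 (random), where 7.56% or 7.93% of probe sets were called. Without litter 4 the difference was 0.76, with an adjusted p of 0.0153, and without the 4 arrays whose Aprt signal went against the label it was 0.73, with an adjusted p of 0.105. Myeloid markers moved with Sat1 at this age. All 8 tested markers were called higher, and their summed signal was 5928 to 8731 in labelled KO and 2305 to 4016 in control kidneys; their part in the Sat1 result was not tested. In a whole-kidney extract, fewer cells of a type and less RNA per cell cannot be told apart.

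Odc1, the rate-limiting step of synthesis, had signals of 543.9, 553.7, 618.1, 615.3, 554.3 and 495.9 in labelled KO kidneys at 7 days and 607.9, 564.4, 602.1, 617, 553.8 and 573.1 in controls. The groups overlapped over most of their range, and labelled KO was higher in 2 of 6 pairs. Means were 563.5 ± 46.47 in labelled KO and 586.4 ± 25.95 in control kidneys (SD, n = 6 each), with a fitted difference of -0.06 (95% interval -0.39 to 0.27, limma adjusted p 0.999).

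Srm, which makes spermidine, had signals of 402.5, 433.5, 474.8, 640.2, 458 and 474.7 in labelled KO kidneys at 7 days and 586.7, 406.1, 431.7, 610.3, 597.9 and 548.1 in controls. The litter 4 array stood highest in both groups, and the groups overlapped. The fitted difference was -0.13 (95% interval -0.40 to 0.13, limma adjusted p 0.959), with labelled KO higher in 2 of 6 pairs. A difference of the size fitted for Sat1 lay outside the intervals of both Odc1 and Srm.

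**Figure D1:**
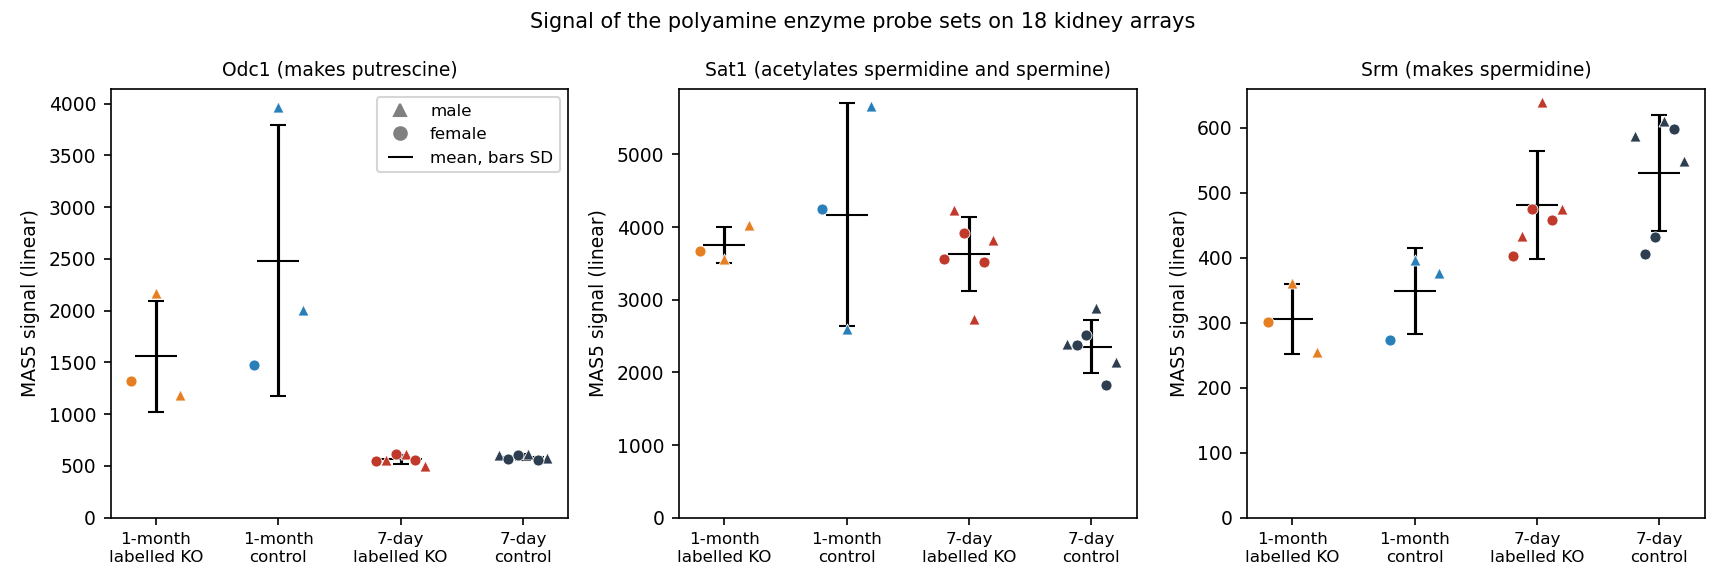
MAS5 signal (linear scale, from 0) of Odc1, Sat1 and Srm on each of the 18 arrays, by age and label, with triangles for males and circles for females; the horizontal line is the group mean and bars are 1 SD. At 7 days, 5 of 6 labelled KO arrays lie at a Sat1 signal of 3512 or more and all 6 controls at 2892 or less, and the highest Odc1 signal, 3967, is that of a 1-month control male.

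At 1 month no member passed the test of label, where 0.201% of probe sets were called. Odc1 was lower in the labelled KO mouse of all 3 pairs, which with 3 pairs can easily arise without an effect. Its signals were 1320, 2169 and 1184 in labelled KO kidneys and 1477, 3967 and 2009 in control kidneys. The labelled KO arrays were each below their own littermate, but the groups overlapped because the litters differed widely. The difference was small in the female litter 7, at -0.16, and larger in the male litters 8 and 9, at -0.86 and -0.75 on the log2 scale. The fit gave -0.59 (SE 0.22, 95% interval -1.06 to -0.12), with an unadjusted p of 0.0163 and a limma adjusted p of 0.729. With the litter pair as a block, Odc1 was called, with the same difference and an adjusted p of 0.0336 (fixed) or 0.0375 (random), where 1.22% or 1.78% of probe sets were called. These fits pool the spread over both ages, and the Odc1 pair differences varied less at 7 days (-0.20 to 0.04) than at 1 month. The p-values thus draw in part on the 7-day mice and may be too small for 1 month. Control replicate 2, a male with 3967, carried much of the difference: without it the value was -0.25, and without labelled KO replicate 3 it was -0.28. Without the 4 arrays whose Aprt signal went against the label it was -0.81, with an adjusted p of 0.832.

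Sat1 at 1 month had signals of 3672, 3562 and 4026 in labelled KO kidneys and 4246, 2602 and 5666 in controls. The control arrays lay both above and below the labelled KO arrays. The fitted difference was -0.08 (95% interval -0.56 to 0.40, limma adjusted p 1.00), higher in labelled KO in 1 of 3 pairs. Srm had signals of 301.1, 361.7 and 255.1 in labelled KO kidneys and 273.8, 397 and 376.3 in controls, a difference of -0.17 (95% interval -0.54 to 0.20, limma adjusted p 1.00). With 3 mice a group these intervals are wide, and they pool the spread over both ages. The Sat1 SD in controls was 1533 at 1 month and 360.3 at 7 days. In labelled KO kidneys it was 242.3 at 1 month and 511.8 at 7 days. The Sat1 interval may thus be too narrow for 1 month. A change in Sat1 of the size fitted at 7 days lay outside it, but the 1-month mice alone cannot exclude such a change.

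**Figure D2:**
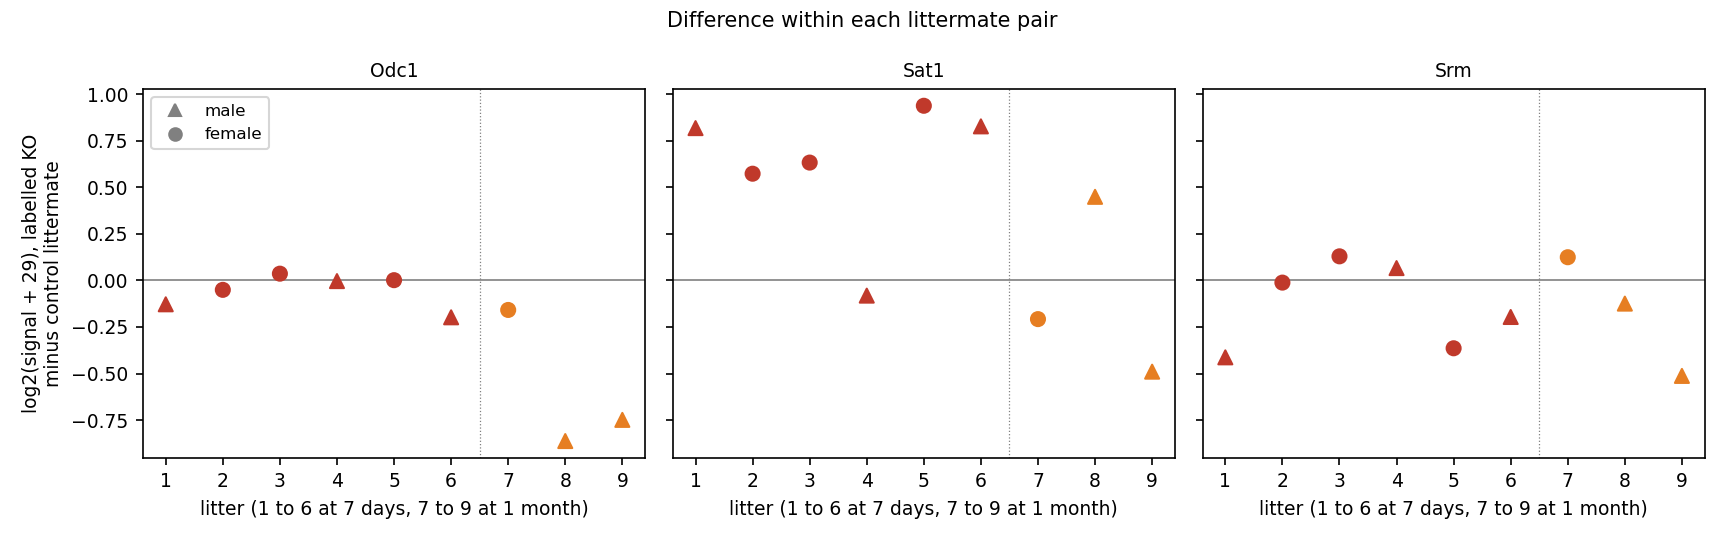
Difference within each of the 9 littermate pairs in log2(signal + 29), labelled KO minus control littermate, for Odc1, Sat1 and Srm; litters 1 to 6 were taken at 7 days and 7 to 9 at 1 month, with triangles for male and circles for female pairs. Sat1 is above 0 in 5 of 6 pairs at 7 days, and Odc1 is below 0 in 3 of 3 pairs at 1 month. With 3 pairs, 1 sign in all can easily arise without an effect.

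Whether the label effect differed between ages was tested with the genotype-by-age term, labelled KO minus control at 1 month minus the same at 7 days. None of the 3 members was called, where 0.375% of probe sets were called by limma and 373 of 7464 had an unadjusted p under 0.05. The term was -0.70 for Sat1 (SE 0.28, 95% interval -1.29 to -0.12, unadjusted p 0.0218, adjusted p 0.725) and stayed uncalled with the litter as a block, where 1.37% or 2.18% of probe sets were called, with an adjusted p of 0.184 or 0.117. Single 1-month arrays moved it: it was -1.04 without control replicate 2 and -0.40 without control replicate 3. For Odc1 it was -0.53 (SE 0.27, adjusted p 1.00), and -0.19 without control replicate 2 or -0.23 without labelled KO replicate 3. The term was -0.04 for Srm (SE 0.22, adjusted p 1.00). The rise of Sat1 at 7 days was thus not shown to be particular to that age.

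All 3 members differed between the ages in control kidneys. The ages shared no litter, and a difference in handling between their arrays could not be told apart from age. The RNA signals of Odc1 and Sat1 rose and that of Srm fell between 7 days and 1 month. Enzyme activity and polyamine levels were not measured. Odc1 averaged 2484 ± 1311 in 1-month controls (SD, n = 3) and 586.4 ± 25.95 in 7-day controls (SD, n = 6), and its ranges did not overlap. Its log2 difference was 1.81 (SE 0.20, 95% interval 1.39 to 2.22, limma adjusted p 1.03e-06), a fold of 3.50. Sat1 averaged 4171 ± 1533 in 1-month and 2356 ± 360.3 in 7-day controls, with 1-month control replicate 2 (2602) inside the 7-day range. Its difference was 0.77 (SE 0.20, limma adjusted p 0.00544). Srm averaged 349 ± 65.96 in 1-month and 530.1 ± 89.03 in 7-day controls, with every 1-month array below every 7-day array. Its difference was -0.60 (SE 0.16, limma adjusted p 0.00519). The share of all probe sets whose ranges did not overlap between the ages was not counted in either genotype.

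Against these 3 of 3 called members, 38.3% of all tested probe sets were called with age in controls, 13.7% higher and 24.6% lower, so a call with age is common on these arrays. The median over all probe sets was -0.11 for this comparison, and quantile normalization moved it to 0.02. Relative to that shift Odc1 and Sat1 stayed higher and Srm lower. The Sat1 and Srm calls in controls were lost without 1 female array, 1-month control replicate 1. The Sat1 difference was then 0.69 (adjusted p 0.104) and the Srm difference -0.42 (adjusted p 0.195). Leaving out that array also lowered the calls over all probe sets from 2855 to 1711. Without litter 7 Srm was again not called (-0.41, adjusted p 0.0814), and without 1-month control replicate 3 Sat1 was 0.51 (adjusted p 0.0469).

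In labelled KO kidneys 2 of 3 members were called with age, where 37.8% of probe sets were called, 14% higher and 23.8% lower. Odc1 averaged 1558 ± 533.6 at 1 month (n = 3) and 563.5 ± 46.47 at 7 days (n = 6), a difference of 1.27 (SE 0.20, limma adjusted p 5.49e-05) without overlap. Srm averaged 306 ± 53.49 at 1 month and 480.6 ± 82.92 at 7 days, a difference of -0.64 (SE 0.16, limma adjusted p 0.00330), also without overlap. Sat1 averaged 3753 ± 242.3 at 1 month and 3627 ± 511.8 at 7 days, a difference of 0.07 (95% interval -0.36 to 0.49, limma adjusted p 0.820). The Odc1 and Srm calls held in 30 of 30 alternative settings. The median shift over all probe sets was -0.12 here, and quantile normalization turned the small Sat1 value to -0.12.

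The order of the group means for Odc1 was 1-month control, 1-month labelled KO, 7-day control and 7-day labelled KO, with the age step larger than the spread and the neighbours within each age inside it. The order for Srm was 7-day control, 7-day labelled KO, 1-month control and 1-month labelled KO, and again neighbours of the same age overlapped. For Sat1, 1-month controls, 1-month labelled KO and 7-day labelled KO kidneys all lay within their spread of one another, and the 7-day controls were the lowest.

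Other markers moved with age in both genotypes. Over all probe sets, 14% were called higher and 23.8% lower with age in labelled KO, and 13.7% and 24.6% in control kidneys. Proximal tubule markers were called higher in 8 of 9 in labelled KO and 7 of 9 in control kidneys. All 7 proliferation markers were called lower in both, with sums of 1981 to 2513 at 1 month against 5019 to 6289 at 7 days in labelled KO kidneys, and 1721 to 3116 at 1 month against 5206 to 6842 at 7 days in controls. Myc, a known activator of Odc1 and Srm transcription, was below the filter, with means of 39.71 ± 22.49 in labelled KO and 44.91 ± 14.97 in control kidneys at 1 month, and 147.5 ± 43.24 in labelled KO and 129.2 ± 33.98 in control kidneys at 7 days. Its partner Max differed with age by -0.39 in labelled KO (limma adjusted p 0.0706) and fell by 0.59 in controls (adjusted p 0.00820). Myeloid markers were called lower with age in 7 of 8 in labelled KO kidneys, with sums of 2867 to 3676 at 1 month against 5928 to 8731 at 7 days. In controls 2 of 8 were called lower and 1 higher, near the shares over all probe sets. The part of these cell types and factors in the member results was not tested.

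**Figure D3:**
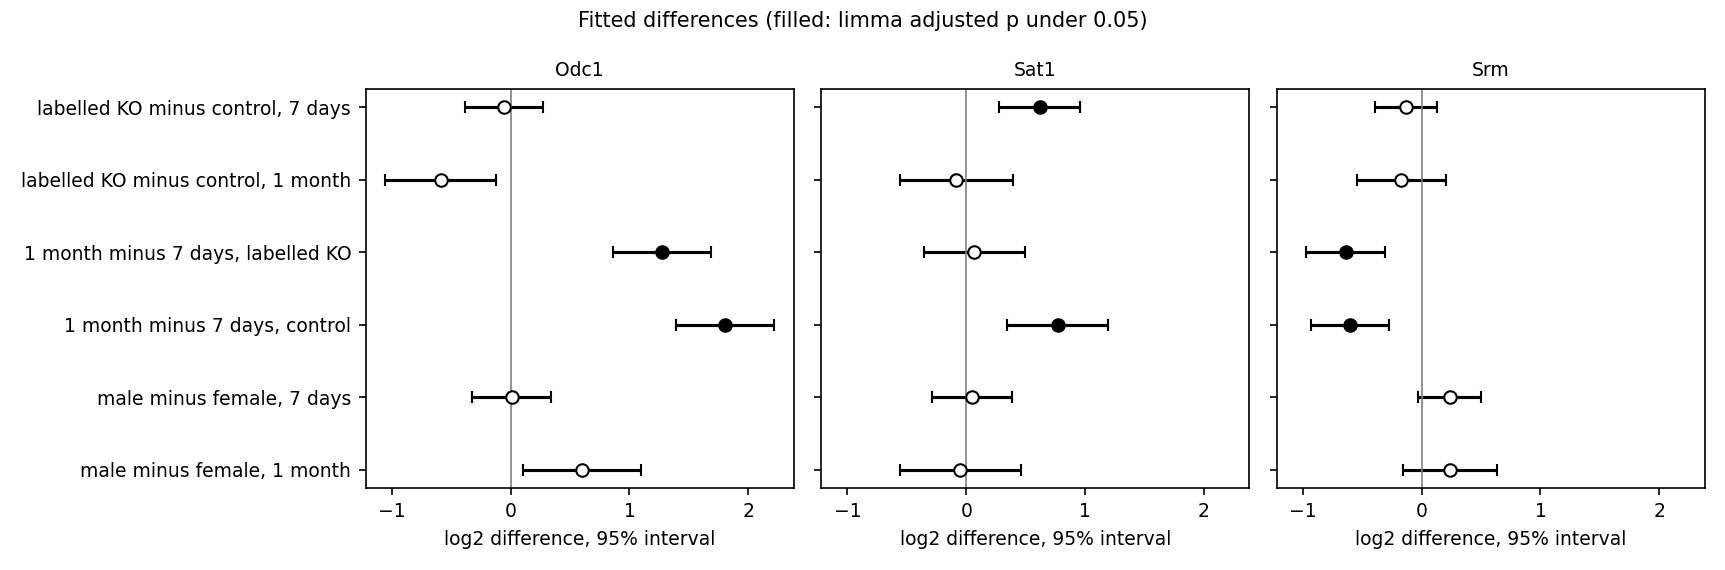
Fitted log2 differences of Odc1, Sat1 and Srm with 95% intervals for label at each age, for age in each genotype and for sex at each age; filled points had a limma adjusted p under 0.05. Odc1 is higher and Srm lower at 1 month in both genotypes, and Sat1 is filled for label at 7 days (0.62) and for age in controls (0.77).

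Sex was compared because Odc1 in the mouse kidney is androgen responsive. At 7 days no member was called, where 0.0536% of probe sets were called, and Odc1 averaged 555 in males and 572.1 in females labelled KO, and 599.3 in males and 573.4 in females among controls (n = 3 each). At 1 month Odc1 reached 2169 and 1184 in labelled KO males against 1320 in the labelled KO female, and 3967 and 2009 in control males against 1477 in the control female. A labelled KO male had the lowest value of all 6 mice, so the sexes overlapped. The male minus female difference was 0.60 (SE 0.23, 95% interval 0.10 to 1.09, unadjusted p 0.0208, limma adjusted p 0.190), where 2.91% of probe sets were called, 2% higher and 0.911% lower. It was 0.28 without control replicate 1 (adjusted p 0.940), 0.34 without control replicate 2 (adjusted p 0.329), 0.92 without labelled KO replicate 1 (adjusted p 0.262) and 0.83 without labelled KO replicate 3, the only array whose removal gave a call (adjusted p 0.0375). With the litter as a random block the adjusted p was 0.554. Littermates share their sex, so the p-values without the block are too small for sex. Both 1-month females came from litter 7 and the males from litters 8 and 9, so sex and litter cannot be told apart at this age. Srm differed by 0.24 at each age (limma adjusted p 0.675 at 7 days and 0.551 at 1 month), and Sat1 by 0.05 at 7 days and -0.05 at 1 month.

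Of the androgen-responsive context genes, the cytochrome P450 gene Cyp4b1 was higher in the 1-month males by 1.81 (limma adjusted p 4.99e-06). The steroid dehydrogenase gene Hsd17b11 was higher by 1.04 (adjusted p 0.000727). Both values are from the fit without a litter block, so these p-values are too small for sex. In that fit 2.91% of probe sets were called for sex at 1 month, against 0.415% with the litter as a random block. Kap, the kidney androgen-regulated protein, differed by -0.43 (adjusted p 0.613) and Gusb by 0.33 (adjusted p 0.247). None of the 4 was called for label at 1 month. Hsd17b11 differed by -0.56 (adjusted p 0.169) and Cyp4b1 by -0.23, each lower in the labelled KO mouse of 3 of 3 pairs, while Kap differed by -0.05 and Gusb by 0.02 (adjusted p 1.00 each), lower in 1 and 2 of 3 pairs.

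The other genes of polyamine metabolism were taken from a list of 28, of which 18 had a probe set of their own and 12 passed the filter. At 7 days 2 of the 12 rose in labelled KO kidneys and none fell, where 2.25% of all probe sets were called higher and 0.482% lower. The list's median difference was 0.01 and that of all probe sets -0.01. Aoc1, diamine oxidase, which oxidises putrescine, had signals of 2812, 3168, 1774, 2509, 2308 and 2421 in labelled KO kidneys, and averaged 2499 ± 471.7 there against 837.9 ± 114.2 in controls (SD, n = 6 each). Every labelled KO array, litter 4 included, was above every control array. The difference was 1.53 (SE 0.12, limma adjusted p 1.96e-07), a fold of 2.89, higher in 6 of 6 pairs and called in 32 of 32 alternative settings. Arg2, the mitochondrial arginase that supplies ornithine, averaged 496.9 ± 59.9 in labelled KO and 242 ± 37.93 in control kidneys, without overlap. Its difference was 0.96 (SE 0.19, limma adjusted p 0.00671), higher in 6 of 6 pairs and called in 32 of 32 settings. The context gene Gusb, not called at 7 days (limma adjusted p 0.0724), also separated fully and was higher in 6 of 6 pairs. The share of all probe sets that showed either pattern at 7 days was not counted.

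With the litter as a block, where 7.56% (fixed) or 7.93% (random) of all probe sets were called at 7 days, Atp13a3 was called in addition. This polyamine transporter differed by 0.23 (limma adjusted p 0.449, and 0.0325 or 0.0366 with the block), higher in 6 of 6 pairs. Gnmt, which consumes S-adenosylmethionine, passed the filter only through its 1-month arrays. At 7 days its signals were 11.26 to 74.56 in labelled KO and 51.14 to 110.6 in control kidneys, all below the filter level of 118.6. Its difference was -0.77 (adjusted p 0.0723, and 0.0127 or 0.00385 with the block), but -1.27 with a pseudocount of 1 and -0.37 with a pseudocount at the 40th percentile. Arg1, the cytosolic arginase, was below the filter, at 45.69 ± 21.17 in labelled KO and 11.9 ± 4.03 in control kidneys. The myeloid marker sums given above moved with these genes too, and their part was not tested.

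At 1 month none of the 12 list genes was called for label. Aoc1 averaged 796.7 ± 91.53 in labelled KO and 520.9 ± 123.1 in control kidneys (SD, n = 3 each), again without overlap and higher in 3 of 3 pairs. Myeloid marker sums were 2867 to 3676 in labelled KO and 2161 to 2767 in control kidneys at this age, also without overlap. Of these markers 8 of 8 were higher and none was called, where 0.201% of all probe sets were called. Their part was not tested. With 3 arrays a group, full separation and pairs of 1 sign can easily arise without an effect. The share of all probe sets that showed them was not counted. The Aoc1 difference was 0.60 (SE 0.17, limma adjusted p 0.251, and 0.0585 or 0.0180 with a fixed or random litter block). The Aoc1 genotype-by-age term was -0.93 (SE 0.21, limma adjusted p 0.0662, and 0.0163 or 0.00279 with the block, where 1.37% or 2.18% of probe sets were called). Arg2 averaged 678.1 ± 244 in labelled KO and 523.5 ± 311.6 in control kidneys at 1 month, a difference of 0.45 (adjusted p 1.00).

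With age, 6 of the 12 list genes rose and 1 fell in labelled KO kidneys, where 14% of all probe sets were called higher and 23.8% lower. The list's median was 0.36 there, against -0.12 over all probe sets. In controls 8 rose and 1 fell, where 13.7% were called higher and 24.6% lower, and the medians were 0.41 and -0.11. Aoc1 was the gene that fell in both, by 1.53 in labelled KO (limma adjusted p 3.02e-07) and by 0.61 in control kidneys (adjusted p 0.00355); the fall of the myeloid markers with age is given above, and its part was not tested. Gnmt is counted among the genes that rose in both, but it passed the filter only through its 1-month arrays. The filter thus favoured a rise, and the Gnmt call is no support for one. Dim at 7 days, Gnmt differed by 3.05 in labelled KO and by 2.62 in controls. These sizes moved with the pseudocount: at the 40th percentile they were 2.02 and 1.95. Ahcy, which clears S-adenosylhomocysteine, rose by 1.62 in labelled KO and 1.97 in controls through its brightest probe set. Oat, which draws ornithine toward proline and glutamate, rose by 0.97 in labelled KO and 0.85 in controls, the last being 0.46 without litter 7 (adjusted p 0.0340). Smaller rises passed the test in both genotypes for Dohh (0.36 and 0.42), which completes the hypusine made from spermidine, and for Slc3a2 (0.75 and 0.40), an amino acid transporter subunit. Slc3a2 in controls was not called under quantile normalization (0.17, adjusted p 0.393) or without litter 7 (0.11, adjusted p 0.665), and in labelled KO it was 0.47 without litter 7 (adjusted p 0.0353). Azin1, the antizyme inhibitor, was called in labelled KO alone (0.36, adjusted p 0.0176, against 0.18 and 0.234 in controls), a difference between genotypes that was not called (adjusted p 1.00). Several of these calls were lost without 1 array. Fewer arrays also lowered the calls over all probe sets, in labelled KO from 2824 to 1628 without 1-month labelled KO replicate 1. Without 1-month labelled KO replicate 1 the Dohh rise in labelled KO was 0.21 (adjusted p 0.439), and without 1-month control replicate 2 that in controls was 0.34 (adjusted p 0.0614). Azin1 was 0.34 without 1-month labelled KO replicate 2 (adjusted p 0.0625) or replicate 3 (adjusted p 0.0578). Without the 4 arrays whose Aprt signal went against the label, the rises no longer called were Dohh in labelled KO (0.26, adjusted p 0.344) and in controls (0.35, adjusted p 0.0502), Azin1 in labelled KO (0.44, adjusted p 0.0858) and Slc3a2 in controls (0.38, adjusted p 0.113).

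Arg2, Atp13a3 and Mat2b, a regulatory subunit of S-adenosylmethionine synthesis, were called with age in controls (1.00, 0.59 and 0.33) and not in labelled KO kidneys (0.49, 0.32 and 0.24). The genotype-by-age term was not called for any of these (adjusted p 1.00 each). Without 1-month control replicate 1, Arg2 in controls was 0.54 (adjusted p 0.246) and Mat2b 0.34 (adjusted p 0.160). Mat2b was 0.24 without the 4 arrays (adjusted p 0.141), and Atp13a3 was 0.94 without litter 7 (adjusted p 0.000102). Oaz2, an antizyme, and Atp13a2, a lysosomal polyamine exporter, were not called in any comparison.

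**Figure D4:**
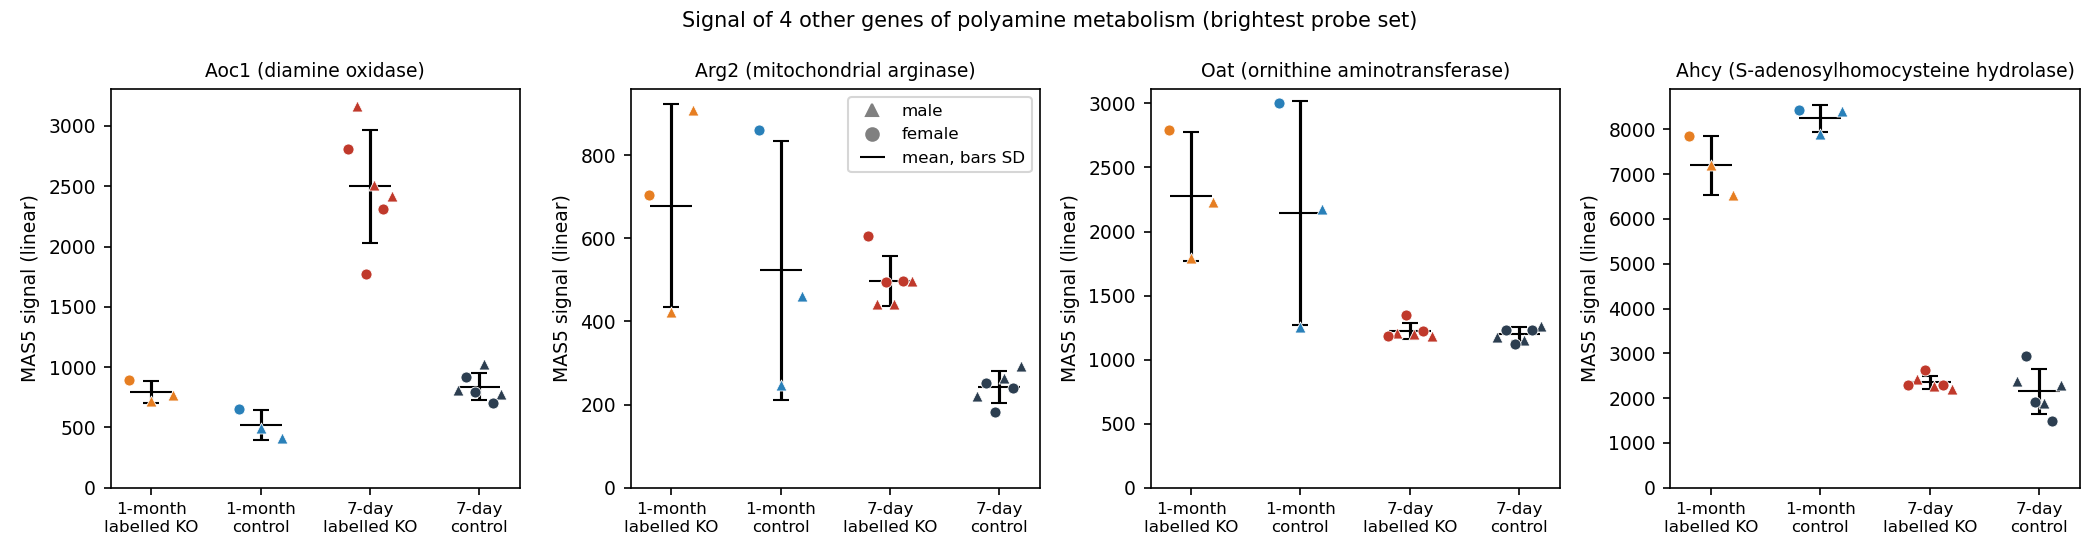
MAS5 signal (linear scale, from 0) of Aoc1, Arg2, Oat and Ahcy on each of the 18 arrays, by age and label, with triangles for males and circles for females; the horizontal line is the group mean and bars are 1 SD. The 6 labelled KO arrays at 7 days lie between 1774 and 3168 for Aoc1, above the other 12 arrays, and the 6 arrays at 1 month lie above all 7-day arrays for Ahcy.

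Between the sexes at 1 month, 1 of the 12 list genes was called higher and 1 lower in males, where 2% of all probe sets were called higher and 0.911% lower, and 0.415% in either direction with the litter as a random block. Atp13a3 differed by 0.69 (limma adjusted p 0.0181, 0.152 with the litter as a random block). Oat differed by -0.66 (adjusted p 0.0390, 0.337 with the block), with signals of 1797 and 2230 in labelled KO males and 1256 and 2173 in control males, against 2794 in the labelled KO female and 3003 in the control female. With only 2 females at this age both calls rested on few arrays: without control replicate 1, a female, Atp13a3 was 0.66 (adjusted p 0.499) and Oat -0.47 (adjusted p 0.766). Without the 4 arrays whose Aprt signal went against the label, Atp13a3 was 0.72 (adjusted p 0.251) and Oat -0.85 (adjusted p 0.206).

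Variation inside the groups was described by the correlation of each member's deviations from the 4 group means with those of the other probe sets, over the same 18 arrays. These points share arrays, litters and sex. Odc1 was most like both probe sets of Cyp7b1 (r = 0.945 and 0.908), a steroid hydroxylase, and Cyp4a12b (r = 0.879), and least like Lpar1 (r = -0.943). Within the 12 arrays at 7 days r was between 0.116 and 0.154 for the first 3, while in the 6 arrays at 1 month it was 0.923 to 0.991, so the likeness lay in the 1-month mice. Sat1 was most like Ppp1r15b (r = 0.866), Smarcd2 (0.817) and Tiprl (0.803), and least like Frmd8 (-0.831). Srm was most like Ptprn (r = 0.867), Qsox1 (0.850) and Tmem150a (0.847), and least like Slmap (-0.838).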

How the data were processed

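RNA from whole mouse kidney was labelled with biotin and hybridised to 1 array per mouse, per the labels' protocols. The deposited values are intensities on a linear scale, which the authors made with MAS5 and GCOS, per the submitters' processing notes. Software versions were not given in the sources used here. Array number limits the precision. Signals were used as deposited, as log2(signal + 29), 29 being the 20th percentile of all values; folds of dim genes are understated. Of 12488 probe sets, 10833 had 1 symbol in the platform annotation, 396 several, 1193 none and 66 were controls. Probe sets with a mean signal at or above the 40th percentile (118.6) were tested, 7464 in all.

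limma 3.58.1 in R 4.3.3 fitted 4 group terms and 1 sex term per age to all 18 arrays (eBayes with intensity trend, 12 residual degrees of freedom, median prior 5.44). Tests were two-sided, with Benjamini-Hochberg adjustment over the 7464 probe sets, and a call was an adjusted p under 0.05. Genes outside the members are represented by their brightest probe set. The fit was tested on simulated data. The p-values of this fit rest on the spread between mice of a group, pooled over both ages, and treat littermates as independent. With the litter as a block, those for label rest mainly on the spread within litter pairs, again pooled over both ages.

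The littermates named in the labels pair the arrays. Within pairs, the deviations had correlations of 0.235 to 0.683, and 13 of 18 arrays correlated best with their littermate. The litter entered alternatives as a fixed or random replicate block. Other alternatives changed the pseudocount, filter, normalization, sex term, variance trend, fit per age or probe sets per gene, or left out each array in turn. Leaving out the 4 arrays whose Aprt signal went against the label, litter 4 or litter 7, and the sex-by-age term, were chosen after seeing the data.

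Named are the members, genes of the polyamine list called in any comparison, context genes for Myc and androgens, Aprt, and for each member the 3 probe sets with the highest and the 1 with the lowest correlation of deviations. The members, lists and this rule were chosen with earlier results of these data known. Figures were drawn with matplotlib 3.10.9.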

Additional observations from a re-analysis of the deposited data

Results flagged for a closer look

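Each group of 6 arrays at 7 days was searched for a single value far from the others, by Dixon's test at its 95% level. Of 38 such groups, over the members and the other tested polyamine probe sets, 4 held one, all among mice labelled Aprt KO; chance alone marks about 1 in 20. Srm was high in the litter 4 array, at 640.2 (gap over range 0.6957), one of the arrays with a compressed range and an Aprt signal against its label. Arg2 was high in labelled KO replicate 1, at 606.1 (0.6554). Oat was high in labelled KO replicate 3, at 1349 (0.7771). The dimmer Mat2b probe set was low in labelled KO replicate 2, at 69.13 (0.7663).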

How the results depend on the processing

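The rise of Odc1 with age in both genotypes and the fall of Srm in labelled KO kidneys kept their direction and their call in 30 of 30 alternatives each. The count of members called for label at 7 days, 1 (Sat1), became 0 without the filter on dim probe sets (adjusted p 0.0662), without the intensity trend (0.0613), without the 4 arrays at odds with their label for Aprt (0.105) and without litter 7 (0.0619). Leaving out 1 array gave 0 to 1; the call was lost without labelled KO replicates 1, 2, 3, 5 and 6 and control replicates 1, 2, 3, 5 and 6 at 7 days, and without labelled KO replicates 1, 2 and 3 and control replicate 1 at 1 month. For label at 1 month the count of 0 became 1 (Odc1) with the litter as a fixed or random replicate block, and no other member call changed with the block. Those fits pool the spread over both ages. Leaving out 1 array gave 1 to 3 for age in controls and 0 to 1 for sex at 1 month.

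Signs turned only for uncalled values. Without litter 4 the Srm genotype-by-age term was 0.00, the Sat1 age difference in labelled KO -0.019 and the Odc1 sex difference at 7 days -0.039; the last was -0.046 without the 4 arrays. Quantile normalization gave -0.12 for the Sat1 age difference in labelled KO. Leaving out 1 array gave ranges of -0.019 to 0.047 (Odc1, sex at 7 days), -0.025 to 0.15 (Sat1, age in labelled KO), -0.42 to 0.22 (Sat1, label at 1 month), -0.28 to 0.20 and -0.024 to 0.14 (Sat1, sex at 1 month and 7 days), -0.32 to 0.003 (Srm, label at 1 month) and -0.19 to 0.13 (Srm, genotype by age). The causes were not tested.

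Over all probe sets the calls for label were 204 at 7 days and 15 at 1 month, 564 and 91 with the fixed block, 592 and 133 with the random block, and 112 and 3 without the 4 arrays. Higher calls were 82.35% of those at 7 days, 57.62% with the fixed block. Separate fits per age give no age or interaction values, the fits without a sex term or with fixed litters no sex values, and sex at 1 month could not be fitted without litter 7.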
